A study of Mus musculus with 8 samples.

Results

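A set of 8 genes that were raised in old blood stem and progenitor cells were followed across age and across loss of the chromatin gene Asxl2. They are Plscr2, Clca3a1, Clu, Nupr1, Aldh1a1, Muc1, Zg16 and Wwtr1, 8 of the 47311 genes to which the deposited transcripts could be assigned, and all 8 were among the 25543 genes with enough reads to be tested. They were selected on their measured RNA levels in these mice, higher in old than in young ones, so their rise with age is described here and not tested. The question put to them was whether the rise differs in mice that lack Asxl2.

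RNA with polyA tails had been amplified with a low-input SMART-Seq kit and sequenced from LSK cells of 8 mice. LSK cells carry no lineage markers and carry Sca1 and Kit, a bone marrow gate that holds the blood stem cells together with the multipotent progenitors that arise from them. The 4 groups, with 2 mice each, were old Asxl2 knockout (KO), old wild type (WT), young KO and young WT, where old means over 1 year and young means 8 to 12 weeks. The labels tie the mice to 4 litters, each with 1 KO and 1 WT mouse, and to 2 batches dated by year, so that every group had 1 mouse in each batch and every litter held mice of 1 age. The labels give neither the allele of the knockout nor any other engineered gene.

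Asxl2 encodes a partner of the histone deubiquitinase Bap1 and measured 5.34 and 4.99 TPM in old KO mice, against 29.96 and 23.02 TPM in old WT mice, and 5.63 and 4.64 TPM in young KO mice, against 23.67 and 30.83 TPM in young WT mice (log2 change -2.10, SE 0.17, edgeR adjusted p = 0.000408). TPM is a level scaled for transcript length and depth. Library totals ran from 45737972 to 80388500 estimated counts, and a library had reads in 31376 to 36846 genes in old mice and in 26723 to 33869 genes in young mice. Xist, the RNA of the inactive X chromosome, was at 3.33 and 3.61 TPM in the KO and the WT mouse of the old litter of batch 1, called litter 1 here, and at most 0.061 TPM in the other 6 libraries. Results that could rest on this litter are therefore given without it as well. Of the LSK markers, Kit ran from 63.4 to 547.2 TPM, Ly6a, which encodes Sca1, from 149.6 to 660.6 TPM and Cd34 from 475.6 to 1047 TPM over the 8 libraries.

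Blood stem cells grow in number with age while their output shifts towards platelets and myeloid cells at the cost of lymphocytes. Their RNA changes as well, and genes of cell adhesion and of stress defence are among those known to be higher in old stem cells. Clu, for example, is used as a marker of old, myeloid- and platelet-biased stem cells. In an RNA pool from many cells, more cells that carry a gene and more RNA per cell cannot be told apart.

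The members encode proteins with little in common. Plscr2 (ENSMUSG00000032372, GRCm38 chromosome 9, 92275602 to 92297752, plus strand) is a phospholipid scramblase, of a family of membrane proteins that bind lipids and calcium. Clca3a1 (ENSMUSG00000056025, chromosome 3, 144729677 to 144760977, minus strand) belongs to the CLCA family, whose members regulate calcium-activated chloride channels. Clu (ENSMUSG00000022037, chromosome 14, 65968483 to 65981547, plus strand) encodes clusterin, a secreted chaperone. Zg16 (ENSMUSG00000049350, chromosome 7, 127050156 to 127087328, minus strand) encodes a lectin of zymogen granules and goblet cells, and Muc1 (ENSMUSG00000042784, chromosome 3, 89229057 to 89233381, plus strand) a mucin that spans the membrane of epithelial cells. Aldh1a1 (ENSMUSG00000053279, chromosome 19, 20492715 to 20643465, plus strand) oxidises retinaldehyde to retinoic acid and clears reactive aldehydes. Nupr1 (ENSMUSG00000030717, chromosome 7, 126623249 to 126630861, minus strand) encodes a small nuclear protein induced by stress, and Wwtr1 (ENSMUSG00000027803, chromosome 3, 57455649 to 57575910, minus strand) encodes TAZ, the coactivator that the Hippo kinases hold in the cytoplasm and that works with TEAD factors.

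Since the members rose together, their promoters are shown where the RefSeq table of GRCm38.p6 holds an entry, which it does for 5 of the 8 members (Aldh1a1, Clca3a1, Muc1, Nupr1 and Wwtr1). The 250 bases before the start are printed 5' to 3' on the gene's strand for Aldh1a1, Clca3a1, Muc1 and Wwtr1. Each printed entry begins within 10 bases of a transcript measured here. That transcript is the main one for Aldh1a1 and Muc1 and one with 7.6% and 3.5% of the gene's TPM for Clca3a1 and Wwtr1. Capitals mark matches to the motifs named after them.
Aldh1a1, chr19:20601718-20601967, plus strand: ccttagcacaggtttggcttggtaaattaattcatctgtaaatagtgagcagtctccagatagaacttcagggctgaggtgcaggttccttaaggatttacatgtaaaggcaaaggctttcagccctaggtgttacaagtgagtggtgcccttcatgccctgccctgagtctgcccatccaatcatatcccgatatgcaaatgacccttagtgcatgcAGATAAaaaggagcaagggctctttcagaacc
Clca3a1, chr3:144760978-144761227, minus strand: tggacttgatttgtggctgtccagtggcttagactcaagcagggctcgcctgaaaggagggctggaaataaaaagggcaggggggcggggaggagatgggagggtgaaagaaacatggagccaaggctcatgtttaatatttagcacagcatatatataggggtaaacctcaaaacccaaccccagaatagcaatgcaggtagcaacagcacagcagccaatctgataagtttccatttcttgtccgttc
Muc1, chr3:89228806-89229055, plus strand: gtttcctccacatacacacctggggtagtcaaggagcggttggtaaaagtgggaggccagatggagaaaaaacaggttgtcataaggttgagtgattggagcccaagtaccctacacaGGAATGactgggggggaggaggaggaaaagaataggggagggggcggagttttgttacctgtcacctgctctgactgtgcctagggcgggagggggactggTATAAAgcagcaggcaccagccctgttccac
Wwtr1, chr3:57575911-57576160, minus strand: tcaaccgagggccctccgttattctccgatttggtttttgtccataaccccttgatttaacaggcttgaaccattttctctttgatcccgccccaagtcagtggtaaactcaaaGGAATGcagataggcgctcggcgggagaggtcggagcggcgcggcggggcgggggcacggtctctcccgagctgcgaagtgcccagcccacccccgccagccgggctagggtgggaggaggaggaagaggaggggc

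The 4 promoters differ in kind. The Aldh1a1 promoter starts 7 bases from the gene's only measured transcript, holds 1 CpG and has an AGATAA at base -32 counted back from the start. The Muc1 promoter holds 3 CpG, a TATAAA at base -31 and a GGAATG, the motif of TEAD factors, at base -132. The Clca3a1 promoter also holds 3 CpG and none of the 8 motifs searched. That of Wwtr1 holds 18 CpG and a GGAATG at base -136. The median over 32851 mouse promoters of this length was 6 CpG, and 44.4% of them held 4 or fewer. The Nupr1 entry, which is not printed, begins 126 bases from Nupr1-205, the transcript with the largest share of the gene's TPM. It begins nearer to Nupr1-204, which held 4.8%. The entry holds a CACGTG and a TTCNNNGAA. Both strands were searched for TATAAA (12.4% of the 32851 promoters hold it), CCGGAA (12.0%), TGTGGT (14.0%), AGATAA (9.99%), TGANTCA (6.75%), TTCNNNGAA (7.02%), GGAATG (12.6%) and CACGTG (6.02%). No motif was found in all 5 members with an entry. GGAATG was in 3 of them, Aldh1a1, Muc1 and Wwtr1, where the match of Aldh1a1 lies in its other entry, far upstream. The motifs were chosen with the members known, and a match is a run of letters, not a bound site.

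All 8 genes were higher in old than in young LSK cells in both genotypes. Over all pairs of an old and a young mouse of the same genotype and batch, the level in the old mouse was 2.98 to 28.8 times that in the young one, and all 32 ratios were above 1, with a median of 7.68 in KO and 7.86 in WT pairs. For each member the lowest old mouse was above the highest young mouse, a separation that 4.73% of all tested genes showed in this direction. The members were chosen for this contrast, so nothing is read from that share.

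**Figure D1:**
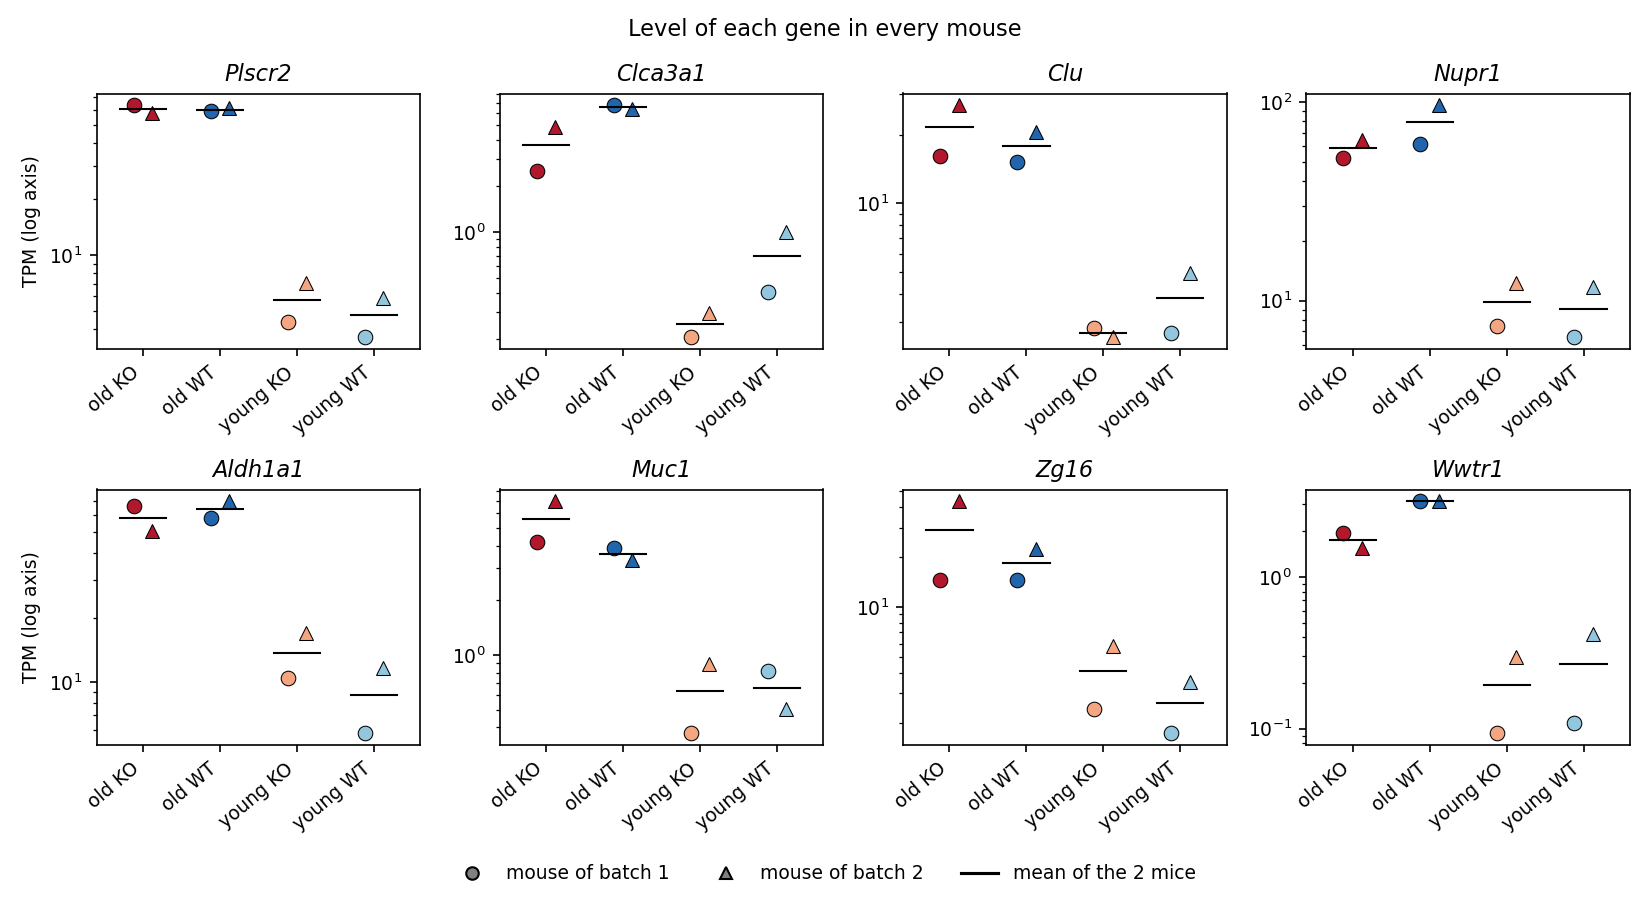
Level of each of the 8 genes in TPM (log axis) in every mouse of the 4 groups. Circles are mice of batch 1, triangles mice of batch 2 and bars the mean of the 2 mice; in every panel the 4 old mice lie above the 4 young mice, while KO and WT mice of 1 age mostly overlap.

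Among the genes of membrane proteins, Plscr2 had the most even levels. It measured 63.67 and 57.97 TPM in old KO mice and 59.01 and 61.13 TPM in old WT mice (batch 1 and batch 2, the order kept for all values per mouse). In young mice it measured 4.38 and 7.10 TPM in KO and 3.63 and 5.87 TPM in WT. The KO and WT ranges overlapped at both ages, and the means differed little (60.8 ± 4.03 TPM in old KO and 60.1 ± 1.502 TPM in old WT, SD, n = 2). Clca3a1 was low, at 2.54 and 4.91 TPM in old KO mice against 6.80 and 6.42 TPM in old WT mice. Its levels were 0.21 and 0.30 TPM in young KO mice and 0.41 and 1.01 TPM in young WT mice, so that KO lay below WT without overlap at both ages. Behind these levels stood 580 and 592 counts in old KO, 1231 and 858 in old WT, 35 and 43 in young KO and 74 and 121 in young WT mice.

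Of the genes of secreted and mucosal proteins, Clu measured 16.10 and 26.95 TPM in old KO mice and 15.19 and 20.45 TPM in old WT mice. In young mice it was at 2.82 and 2.59 TPM in KO and at 2.68 and 4.96 TPM in WT. Its ranges overlapped between genotypes at both ages. Zg16 measured 14.58 and 43.45 TPM in old KO mice and 14.46 and 22.40 TPM in old WT mice. Young KO mice had 2.41 and 5.81 TPM and young WT mice 1.73 and 3.52 TPM. The old KO mouse of batch 2 was the highest of the 8, and the mouse of batch 2 was the higher one in every group. Muc1 measured 4.18 and 7.02 TPM in old KO mice, both above the 3.86 and 3.32 TPM of old WT mice. In young mice it was near its floor, at 0.37 and 0.89 TPM in KO and 0.81 and 0.50 TPM in WT, from 31 to 51 counts a library. The coding transcript Muc1-201 alone overlapped between old KO (1.94 and 5.56 TPM) and old WT mice (3.23 and 2.695 TPM). So did the counts of the gene, 299 and 414 in old KO against 359 and 223 in old WT mice.

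The enzyme gene Aldh1a1 measured 66.21 and 50.55 TPM in old KO mice and 58.55 and 69.93 TPM in old WT mice. In young mice it was at 10.42 and 16.95 TPM in KO and at 5.78 and 11.63 TPM in WT, so the genotypes overlapped at both ages. Nupr1 measured 52.33 and 64.62 TPM in old KO mice and 61.27 and 96.53 TPM in old WT mice. Young KO mice had 7.42 and 12.22 TPM and young WT mice 6.56 and 11.66 TPM, with the batch 2 mouse again the higher one in every group. Wwtr1 was the lowest member, at 1.93 and 1.55 TPM in old KO mice, below the 3.15 TPM of each old WT mouse. Its young levels of 0.09 and 0.30 TPM in KO and 0.11 and 0.42 TPM in WT rest on 21 to 69 counts a library.

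Ordered by level, the old groups came before the young groups for each member, and the gap between the lower old and the higher young group never overlapped. Between KO and WT of 1 age the ranges did not overlap for Clca3a1 (lower in old KO and in young KO) and for Wwtr1 (lower in old KO). Nor did they for the summed TPM of Muc1 (higher in old KO), while its coding transcript overlapped. In the remaining 12 pairs of KO and WT groups the 2 mice of each overlapped with those of the other. The share of all tested genes without such overlap was not computed, so nothing is read from these pairs.

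The size of the rise differed among the members and between batches. In the fit over both genotypes the old over young log2 change was 3.605 for Plscr2 (SE 0.19), 3.55 for Clca3a1 (SE 0.27) and 3.58 for Wwtr1 (SE 0.40), and between 2.44 for Nupr1 (SE 0.22) and 2.99 for Muc1 (SE 0.35) for the other 5. The change in all genes had a median of 0.15. Wwtr1 showed the widest spread of ratios, at 20.7 and 5.26 in KO and 28.8 and 7.45 in WT pairs of batch 1 and batch 2. Aldh1a1 had the smallest single ratio, with 6.36 and 2.98 in KO pairs against 10.1 and 6.01 in WT pairs. Without litter 1 the log2 changes were 2.25 (Aldh1a1) to 3.44 (Clca3a1 and Muc1), with Wwtr1 at 2.77 and Plscr2 at 3.38.

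**Figure D2:**
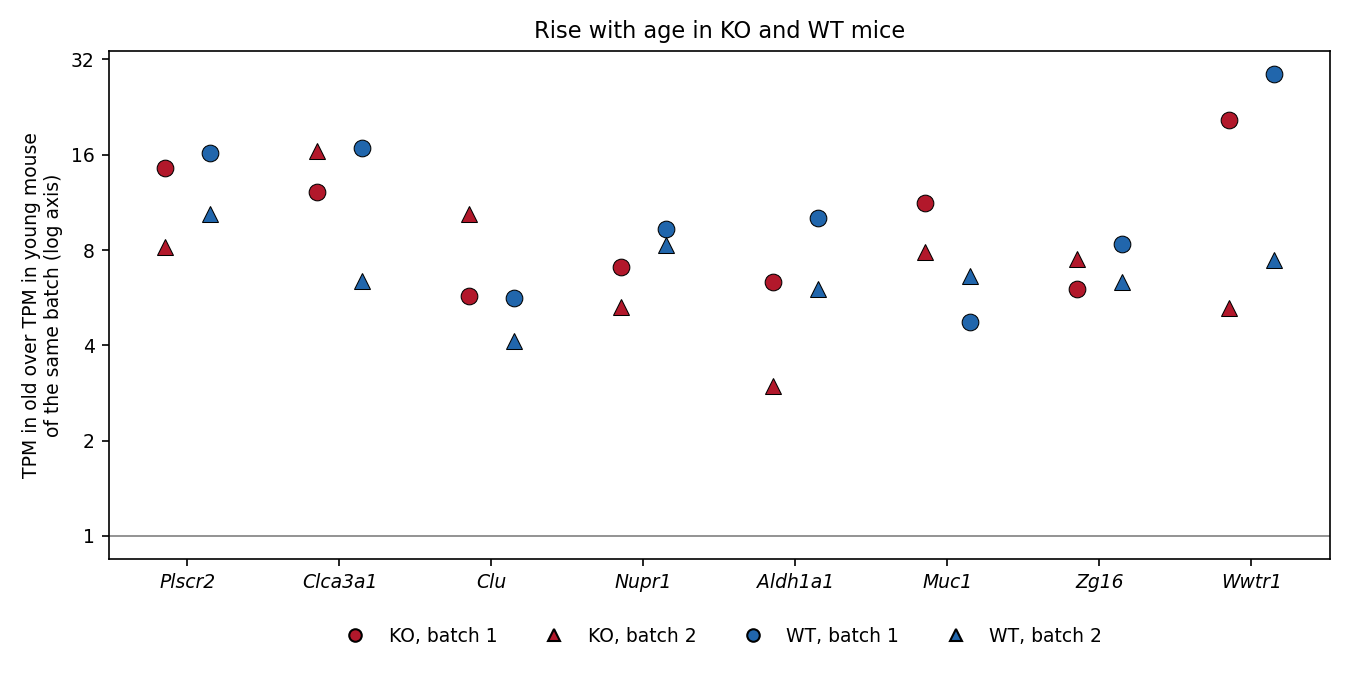
Ratio of the level in the old mouse to that in the young mouse of the same genotype and batch (log axis) for the 8 genes; red is KO, blue is WT, circles are batch 1 and triangles batch 2. All 32 ratios lie above 1, between 2.98 and 28.8, and the KO and WT ratios do not overlap for Clu and Muc1, higher in KO, and for Nupr1, lower in KO. For Clu the batch 1 ratios are 5.71 in KO and 5.66 in WT. The share of all tested genes with such a gap was not computed, so nothing is read from it.

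Whether KO alters the rise was tested as the difference between the rise in KO mice and the rise in WT mice. This difference is independent of the mean age effect over both genotypes in a balanced design, but not of the rise in WT mice alone, and the rule for choosing the members does not say which was used. No member passed: the adjusted p of edgeR's quasi-likelihood test over 25543 genes was 1 for all 8, and none had an unadjusted p under 0.05. DESeq2 called 0 of the 8 as well. Over all tested genes, 0.00391% passed, which is 1 gene, the antibody segment Ighv7-1, named after its value was seen, while 505 had an unadjusted p under 0.05. The median difference was -0.06 on the log2 scale for the 8 members and -0.01 for all genes.

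The intervals of these differences were wide, so a missed threshold does not show an equal rise. For Plscr2 the KO rise (log2 3.598, SE 0.30) and the WT rise (3.61, SE 0.30) differed by -0.013, with a 95% interval of -0.84 to 0.81, that is a KO rise between 0.56 and 1.76 times the WT rise. The largest positive difference was that of Muc1, 0.83 (interval -0.58 to 2.25), with a KO rise of 3.42 (SE 0.50) and a WT rise of 2.58 (SE 0.47). Clu followed with 0.73 (interval -0.22 to 1.69) and Clca3a1 with 0.60 (interval -0.49 to 1.68). The largest negative difference was that of Aldh1a1, -0.63 (interval -1.58 to 0.33), with a KO rise of 2.22 (SE 0.32) and a WT rise of 2.85 (SE 0.33). Nupr1 had a difference of -0.47 (interval -1.41 to 0.46), Wwtr1 one of -0.20 (interval -1.85 to 1.45) and Zg16 one of -0.11 (interval -1.34 to 1.11). Estimates of Plscr2, Clca3a1, Muc1, Zg16 and Wwtr1 changed sign under some settings.

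Within the batches the differences can be read off the TPM of the mice, which is scaled otherwise than the counts of the fits. The median difference over tested genes was -0.006 on counts, -0.14 on log2(TPM + 1) and -0.17 on log2(TPM + 0.1). The KO rise was smaller than the WT rise in both batches for Plscr2 (-0.16 and -0.35 on the log2 scale in batches 1 and 2), Nupr1 (-0.41 and -0.65), Aldh1a1 (-0.67 and -1.01) and Wwtr1 (-0.48 and -0.50). It was larger in both for Muc1 (1.24 and 0.26) and Clu (0.012 and 1.34). For Clca3a1 (-0.45 and 1.37) and Zg16 (-0.47 and 0.23) the batches went opposite ways. The share of all genes with the same sign in both batches was not computed, so nothing is read from these signs. Without litter 1 the fitted differences ran from -1.29 for Aldh1a1 to 1.34 for Muc1, and the adjusted p was 1 for all 8.

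Over both ages KO mice had less Clca3a1 than WT mice, and no other member passed. The fit holds genotype, age and batch but not litter. Clca3a1 measured 1.99 ± 2.23 TPM in KO mice and 3.66 ± 3.42 TPM in WT mice over both ages (SD, n = 4, a spread that includes the age difference). Its KO over WT log2 change was -0.98 (SE 0.25, 95% interval -1.52 to -0.44, edgeR adjusted p = 0.0339), and KO was below WT in all 4 litters, at 0.373 and 0.765 times the WT level in the old litters of batches 1 and 2 and at 0.511 and 0.297 times in the young ones. A lower level in KO in all 4 litters was found for 24.2% of all tested genes. Over both ages 9.98% of all genes passed (3.19% higher and 6.78% lower in KO), so 1 of 8 members is near the background.

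The Clca3a1 call depended on single libraries. It was lost without the old KO mouse of batch 1 (adjusted p = 0.117) or of batch 2 (0.0625), the young KO mouse of batch 2 (0.101), the old WT mouse of batch 1 (0.135) or of batch 2 (0.0751) and the young WT mouse of batch 2 (0.0877), and it held without the young KO (0.0423) or the young WT mouse of batch 1 (0.0164). With litter as a block the log2 change was -0.96 (adjusted p = 0.0594), and with a correction for a trend of the libraries with transcript length it was -0.55 (adjusted p = 0.152). Without litter 1 it was -0.87 (adjusted p = 0.204). In addition, 40.6% of the 31-base words of the Clca3a1 transcripts occur in other genes, 35.0% in its close relative Clca3a2. Clca3a2 was at most 0.46 TPM in any library, and how reads were split between both genes was not tested.

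Of the other members, Zg16 was higher in KO in all 4 litters, at 1.01 and 1.94 times the WT level in the old and 1.40 and 1.65 times in the young litters, as were 12.2% of all genes. Its log2 change of 0.74 (SE 0.26, 95% interval 0.17 to 1.31) missed the threshold (edgeR adjusted p = 0.087) and passed in DESeq2 (adjusted p = 0.0268). DESeq2 called 5381 of all 25543 genes in this comparison, against 2548 in edgeR, so nothing is read from that call. Wwtr1 was lower in KO in all 4 litters, at 0.615 and 0.492 times the WT level in the old and 0.858 and 0.697 times in the young ones, with a log2 change of -0.45 (95% interval -1.24 to 0.35, adjusted p = 0.437). Aldh1a1 had a change of 0.45 (interval -0.056 to 0.95, adjusted p = 0.22) and Plscr2 one of 0.28 (interval -0.11 to 0.67, adjusted p = 0.315). Muc1, Clu and Nupr1 lay within 0.11 of 0, with intervals that reached from -0.62 to 0.83, from -0.42 to 0.59 and from -0.48 to 0.45 in the same order. The members' median change was 0.10, the same as over all genes.

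Within 1 age no member passed between KO and WT, where 0.65% of all genes passed in old and 0.0626% in young mice. In edgeR's test 0 members in old and 2 in young mice, Aldh1a1 and Clca3a1, had an unadjusted p under 0.05, and DESeq2 called 0 in old and 1, Clca3a1, in young mice. Of all 25543 genes, 5405 in old and 2417 in young mice had such a p, and DESeq2 called 3297 and 382. In old mice the changes ran from -0.70 for Clca3a1 (adjusted p = 0.254) to 0.69 for Zg16 (adjusted p = 0.332). In young mice they ran from -1.30 for Clca3a1 (adjusted p = 0.418) to 0.80 for Zg16 (adjusted p = 0.556), with Aldh1a1 at 0.76 (unadjusted p = 0.0315 in edgeR's test, adjusted p = 0.513). Without the young WT mouse of batch 1, which leaves 1 young WT mouse, the young Clca3a1 change was -1.63.

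**Figure D3:**
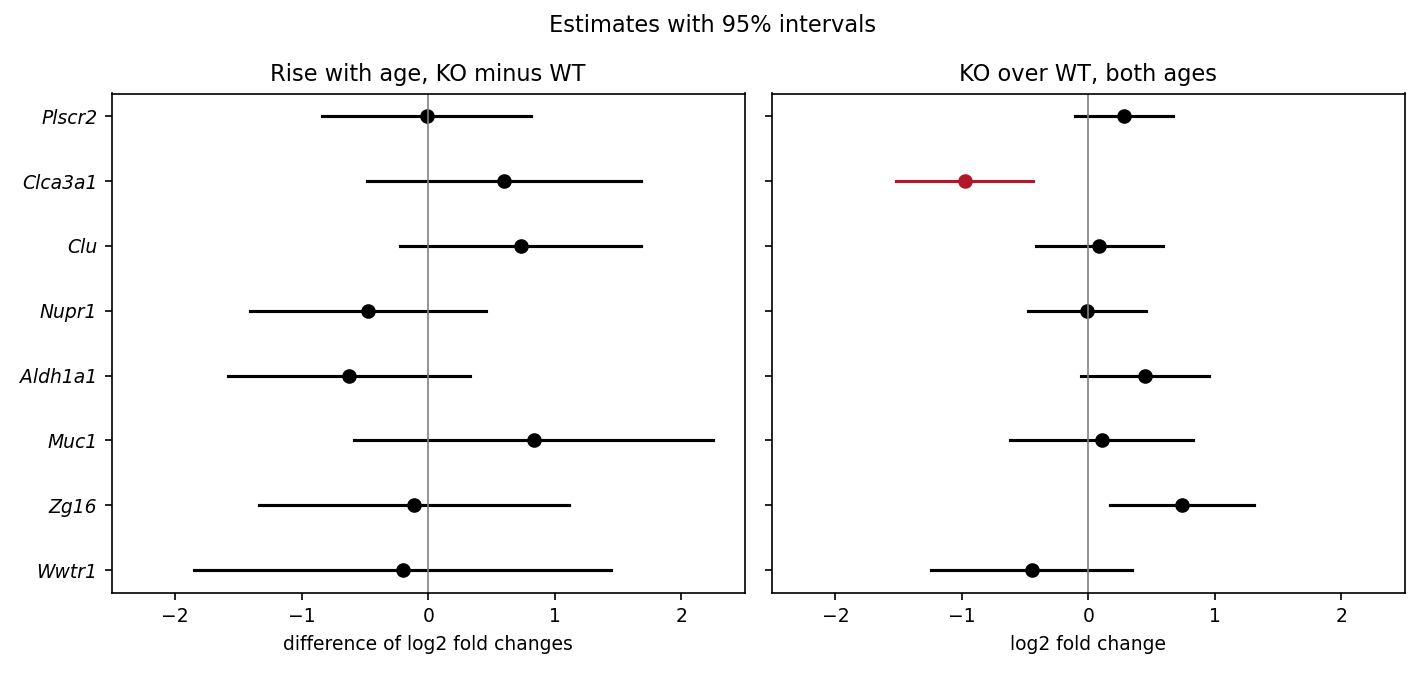
Fitted estimates with 95% intervals for the 8 genes. Left, difference between the log2 rise with age in KO and in WT mice; right, log2 change of KO over WT over both ages; red marks the 1 estimate that passed the threshold, Clca3a1 at -0.98, and all 8 intervals on the left include 0.

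For most members 1 coding transcript held most of the RNA. All Aldh1a1 RNA was assigned to Aldh1a1-201, and Clu-201 held 98.1%, Wwtr1-201 96.5% and Clca3a1-202 92.4% of the TPM of their genes. Muc1-201, which codes for the protein, held 67.0% in old KO, 82.4% in old WT, 50.1% in young KO and 67.4% in young WT mice, and the rest was almost all the short noncoding Muc1-202. For Nupr1 the largest share, 50.2% over all mice, went to Nupr1-205, a transcript annotated for nonsense-mediated decay, and 36.1% to the coding Nupr1-201. Zg16 was split among Zg16-203 with 45.4%, the noncoding Zg16-204 with 39.7% and Zg16-201 with 14.2%. Plscr2 was split between Plscr2-201 with 58.6% and Plscr2-202 with 32.7%. Genes that overlap a member on the other strand were at most 0.85 TPM in any library. Aldh1a1 shared 5.7% of its 31-base words with Aldh1a7, which was at 0.18 to 0.96 TPM.

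Close relatives of the members were tested as well. Of 19 tested paralogs, 1 rose and 1 fell with age, where 4.34% of all genes were higher and 9.61% lower, and 1 was lower in KO, where 6.78% of all genes were. An unadjusted p under 0.05 was found for 8 of them with age and 6 with genotype, and DESeq2 called 4 and 2. Of all 25543 genes, 9521 and 7445 had such a p, and DESeq2 called 6745 and 5381. Their median old over young change was 0.80, against 0.15 for all genes, and 10 of the 20 listed stayed below 1 TPM in every library. Plscr1, the best-studied scramblase of the family, measured 91.5 and 103.3 TPM in old KO and 139.5 and 138.0 TPM in old WT mice, against 71.9 and 70.6 TPM in the young KO mice and 99.6 and 91.8 TPM in the young WT mice. It rose with age by 0.46 on the log2 scale (SE 0.13, edgeR adjusted p = 0.0386), and Plscr3 fell by 0.63 (adjusted p = 0.0219). Plscr4 was lower in KO by a log2 change of -0.84 (adjusted p = 0.0228). The call of Plscr1 held without the young WT mouse of batch 1 and was lost without any other single mouse (adjusted p up to 0.18). That of Plscr3 was lost without either old KO mouse, the old WT or the young KO mouse of batch 1 or the young WT mouse of batch 2 (up to 0.12), that of Plscr4 without any 1 of the 4 old mice (up to 0.0842), and all 3 without litter 1. The other detected relatives, Aldh1b1, Aldh1a3, Nupr1l, Clca1, Muc4, Muc13 and Muc16, passed in neither comparison. Yap1, the close relative of TAZ, was at 0.37 to 0.998 TPM in the 8 libraries.

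The pathways around the members were read from lists of their other genes. Among Hippo and TEAD genes, the pathway of Wwtr1, 2 of 22 tested genes were higher and 3 lower in old mice, against 4.34% and 9.61% of all genes. Amotl2, a binding partner of TAZ and YAP, rose by 1.30 (SE 0.27, edgeR adjusted p = 0.0233), while the receptor kinase Axl (-1.25, adjusted p = 0.0189), the kinase Lats2 (-0.90, adjusted p = 0.0305) and its cofactor Mob1a (-0.67, adjusted p = 0.0261) fell. Lats2 was also lower in KO (-1.24, adjusted p = 0.0153), where 1 of the 22 passed in edgeR, 4 in DESeq2, 6 at an unadjusted p under 0.05 and 0 to 5 were lower with 1 mouse left out. With genotype, 2548 of all 25543 genes passed in edgeR, 5381 in DESeq2 and 7445 at an unadjusted p under 0.05. Among retinoid genes, the pathway of Aldh1a1, 0 of 18 were higher and 3 were lower in old mice (6 at an unadjusted p under 0.05, and 5 called by DESeq2), all nuclear receptors: Rxra (-1.01, adjusted p = 0.0264), Rara (-0.83, adjusted p = 0.0323) and Rxrb (-0.55, adjusted p = 0.0239). With age, 9521 of all 25543 genes had an unadjusted p under 0.05, and DESeq2 called 6745. Rarb was lower in KO, at 1.24 and 1.29 TPM in old KO against 2.91 and 8.76 TPM in old WT mice and at 0.69 and 1.34 TPM in young KO against 1.80 and 3.92 TPM in young WT mice (log2 -1.58, adjusted p = 0.0189).

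Of 22 genes of the integrated stress response, the programme that induces Nupr1 through Atf4, 1 was higher and 5 were lower in old mice, and 0 were higher and 3 lower in KO. Over all genes 4.34% were higher and 9.61% lower in old mice, and 3.19% higher and 6.78% lower in KO. The cystine transporter gene Slc7a11 rose with age by 1.27 (SE 0.38, edgeR adjusted p = 0.0464). Sesn2 (-0.85, adjusted p = 0.0219) and the kinase genes Eif2ak3 (-0.82, adjusted p = 0.0245) and Eif2ak4 (-0.69, adjusted p = 0.0438) fell with age. Sesn2 (-0.98, adjusted p = 0.0135), Eif2ak3 (-0.79, adjusted p = 0.0253) and Ppp1r15a (-0.72, adjusted p = 0.0205) were lower in KO. Of 13 tested secretory granule and mucin genes 0 passed in either comparison by edgeR's test, while 5 with age and 3 with genotype had an unadjusted p under 0.05 and DESeq2 called 3 and 1. Of all 25543 genes, 9521 and 7445 had such a p, and DESeq2 called 6745 and 5381. Their median old over young change was 1.17, against 0.15 for all genes, and 9 of the 20 annotated genes stayed below 1 TPM in every library. In each of these lists 0 genes passed for a difference in the rise in edgeR or DESeq2, with an unadjusted p under 0.05 in 1 Hippo, 1 retinoid, 0 stress response and 0 secretory genes. Of all 25543 genes, 505 had such a p for this difference.

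These pathway calls were fragile. Each call with age named for the Hippo, retinoid and stress response lists was lost without the old KO mouse of batch 1 and also without the young KO mouse of batch 1 (adjusted p up to 0.19), and all but that of Axl also without the old KO mouse of batch 2, the old WT mouse of batch 1 or the young WT mouse of batch 2. Rxrb also lost its call without the young KO mouse of batch 2, and Slc7a11 and Eif2ak4 without the old WT mouse of batch 2. All of these calls were lost without litter 1, and all but that of Amotl2 with the length correction. The calls in KO of Lats2 and Sesn2 were lost without the old KO mouse of batch 1 or the old WT mouse of batch 2 (adjusted p up to 0.0751 and 0.0641), that of Rarb without the old WT mouse of batch 2 (0.0798), that of Ppp1r15a without any 1 of the 4 old mice (0.0987) and that of Eif2ak3 without those or either mouse of the young litter of batch 2 (0.0998). All but that of Rarb were lost without litter 1, and those of Rarb and Eif2ak3 with the length correction.

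A further 46 genes tied to aged stem cells give a frame for the 8. In old mice 18 were higher and 5 lower, with a median log2 change of 0.39 against 0.15 for all genes, of which 4.34% were higher and 9.61% lower. In KO mice 2 were higher and 18 lower, with a median of -0.54 against 0.10 for all genes, of which 3.19% were higher and 6.78% lower. The 8 members, with a median KO change of 0.10 and 1 lower gene, were not compared with this list by a test, and both were compiled with results of these data known. The highest rises with age were those of the oxysterol receptor gene Gpr183 (2.77, SE 0.34, edgeR adjusted p = 0.00442), the metallothionein gene Mt2 (2.74, SE 0.68, adjusted p = 0.0309), the P-selectin gene Selp (2.40, SE 0.28, adjusted p = 0.00357) and the glutathione transferase gene Gstm2 (2.33, SE 0.28, adjusted p = 0.00442).

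In KO the lowest changes were those of the matrix gene Mmrn1 (-2.85, adjusted p = 0.000304), the LIM-domain gene Fhl1 (-2.19, adjusted p = 0.00117), the junction gene Jam3 (-1.94, adjusted p = 0.00455) and the p53 target Perp (-1.84, adjusted p = 0.00419). Fhl1 measured 5.39 and 7.02 TPM in old KO mice against 22.8 and 31.01 TPM in old WT mice, and 0.96 and 2.01 TPM in young KO mice against 7.03 and 13.3 TPM in young WT mice. Fhl1 rose with age by 1.66 in the fit over both genotypes (SE 0.22, edgeR adjusted p = 0.00636, and 0.0548 without litter 1), and its old mice lay above the young mice of the same genotype. Its difference in rise was 0.78 and did not pass (adjusted p = 1). Of these 8 named genes, 7 kept their calls when any 1 library was left out, and Mt2 lost its call without either old KO mouse, the young KO mouse of batch 1 or the young WT mouse of batch 2 (adjusted p up to 0.13). The counts moved more. The 18 genes higher in old mice became 8 without the old KO mouse of batch 1 and 6 without the young KO mouse of batch 1. They became 11 without the young WT mouse of batch 2 and 5 without litter 1. Of all genes, the 1109 higher in old mice became 58, 38, 69 and 38 in the same order. The 18 lower in KO became 6 and 8 without the old KO mouse of batch 1 or 2. They became 8 and 4 without the old WT mouse of batch 1 or 2. They were 8 without the young KO mouse of batch 2, 8 without the young WT mouse of batch 2 and 5 without litter 1. With litter as a block they were 9 and with the length correction 8. Of all genes, the 1732 lower in KO became 161, 334, 373, 68, 491, 541, 166, 784 and 598 in the same order. Under the length correction 0 genes of the list were lower in old mice.

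**Figure D4:**
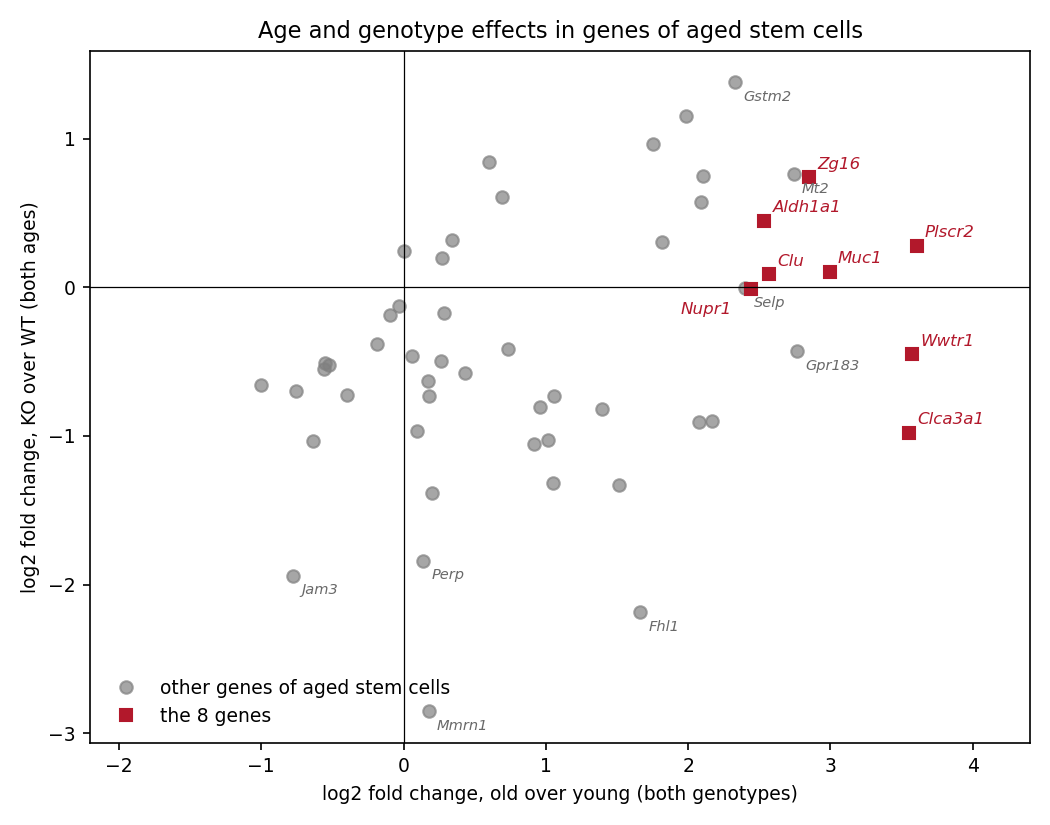
Log2 change of KO over WT (vertical, both ages) against log2 change of old over young (horizontal, both genotypes) for the 8 genes (red squares) and 46 other genes of aged stem cells (grey circles). The 8 lie between 2.44 and 3.605 on the age axis, by choice, and between -0.98 and 0.74 on the genotype axis, while Mmrn1, Fhl1, Jam3 and Perp lie below -1.8.

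Other cell types in the gate were followed by marker lists, given as genes higher and lower in old mice and then higher and lower in KO. For LSK and stem cell markers these were 0, 6, 3 and 6 of 15 tested. Over all genes 4.34% were higher and 9.61% lower in old mice, and 3.19% higher and 6.78% lower in KO, so single calls in a list are near these shares. The counts were 1, 0, 1 and 0 of 11 for megakaryocytes and platelets, 0, 1, 0 and 0 of 11 for neutrophils, 0, 0, 1 and 0 of 8 for myeloid progenitors and 0, 7, 0 and 8 of 10 for erythroid cells. They were 1, 2, 0 and 1 of 10 for B and plasma cells, 1, 1, 1 and 0 of 10 for T and NK cells and 1, 0, 1 and 0 of 11 for macrophages and dendritic cells. Mast cells and basophils had 0, 0, 0 and 6 of 8, stroma and endothelium 1, 0, 0 and 4 of 12 and epithelium 0, 1, 0 and 0 of 6. With 1 mouse left out, the LSK markers lower in old mice numbered 0 to 8 and those lower in KO 0 to 11, and the erythroid markers 0 to 7 and 1 to 8. The mast cell markers lower in KO numbered 0 to 6 and those of stroma and endothelium 1 to 5. With litter as a block, the markers lower in KO were 2 for LSK cells, 3 for erythroid cells, 6 for mast cells and 3 for stroma and endothelium.

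Erythroid markers summed to 94.1 to 134.1 TPM in old KO, 277.7 to 891.1 in old WT, 296.4 to 613.3 in young KO and 1002 to 1299 TPM in young WT mice. The sums lay lower in old than in young mice of each genotype and lower in KO than in WT mice of each age, without overlap. Megakaryocyte markers summed to 188.2 to 230.7 TPM in old KO and 196.5 to 197.9 TPM in old WT mice. These sums lay above the 136.4 to 165.2 TPM of young KO and the 106.0 to 156.4 TPM of young WT mice. Only 1 of the 11 markers passed with age. Sums of T and NK cell markers were also higher in old mice of each genotype, without overlap. They were 839.6 to 901.9 against 681.3 to 698.3 TPM in KO and 465.0 to 481.8 against 381.5 to 445.7 TPM in WT. Of these 10 markers 1 passed as higher and 1 as lower with age, and Cd3e was below 1 TPM in every library. Sums of macrophage and dendritic cell markers were higher in old mice as well. They were 119.6 to 127.8 against 93.07 to 108.6 TPM in KO and 56.54 to 68.3 against 52.22 to 52.63 TPM in WT. Only 1 of these 11 markers passed with age, and Adgre1 and Mrc1 were below 1 TPM in every library. Neutrophil markers ran from 70.0 to 279.8 TPM in old KO, from 12.4 to 1095 TPM in old WT, from 166.1 to 1582 TPM in young KO and from 668.7 to 951.6 TPM in young WT mice. Epithelial markers, of interest because Muc1, Zg16 and Clca3a1 are genes of epithelia, summed to 185.8 to 252.0 TPM in old KO, 258.7 to 265.7 in old WT, 167.6 to 199.1 in young KO and 168.0 to 205.6 TPM in young WT mice. Most of that sum was Krt18, at 154.5 to 247.6 TPM, and 7 of the 11 markers (Cdh1, Krt19, Krt5, Krt14, Cldn3, Elf3 and Vil1) were below 1 TPM in every library. Of 14 stromal and endothelial markers, 6 (Cdh5, Kdr, Col3a1, Pdgfra, Adipoq and Bglap) were below 1 TPM in every library. No marker was at 0 in all libraries. The part of these cell types in the members' levels was not tested.

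The genes whose levels followed the members most closely over the 8 libraries were Aspa, Phactr1, Selp, Luzp1 and Malsu1. Likeness was the Pearson correlation of log2(TPM + 1) with the mean standardised profile of the 8 members over 8 libraries, ranked over 11171 genes, and it is a description of libraries that share their age groups. Aspa, which encodes aspartoacylase, had r = 0.984 and measured 25.0 and 20.5 TPM in old KO and 19.6 and 28.0 TPM in old WT mice, against 4.09 and 5.79 TPM in the young KO mice and 3.67 and 6.42 TPM in the young WT mice. Its old mice did not overlap its young mice, and KO and WT overlapped at both ages. Phactr1, a regulator of actin and protein phosphatase 1, had r = 0.967, with 13.5 and 11.7 TPM in old KO and 13.2 and 11.8 TPM in old WT mice, against 4.002 and 6.63 TPM in the young KO mice and 4.68 and 5.36 TPM in the young WT mice. Selp had r = 0.955, with 19.5 and 23.1 TPM in old KO and 41.5 and 22.2 TPM in old WT mice, against 4.90 and 5.29 TPM in the young KO mice and 2.45 and 6.32 TPM in the young WT mice. Luzp1 (r = 0.954) and the mitochondrial ribosome factor Malsu1 (r = 0.951) had a mean TPM in old over young mice of 1.96 and 1.31 times in KO and 1.93 and 1.31 times in WT. In the count fit over both genotypes the old over young log2 change was 0.41 (SE 0.18) for Luzp1, 0.18 (SE 0.16) for Malsu1 and 0.69 (SE 0.21) for Phactr1, against 1.97 (SE 0.20) for Aspa.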

How the data were processed

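RNA-seq was analysed for LSK cells of 8 mice. Per the submitters' processing notes, kallisto, the mm10 build and DESeq2 were used, without versions; the index is not given in the sources used here. The deposited tables hold, per the file headers, estimated counts, TPM and the effective length of each of 115088 transcripts in 1 library.

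By identifier, 114200 transcripts matched GENCODE vM21 (GRCm38) and were summed to 47311 genes; the other 888 held 0.259% to 0.47% of counts and were left out. Estimated counts were rounded and scaled by TMM, filtered (edgeR filterByExpr, minimum count 10, total 15) and tested by quasi-likelihood in edgeR 4.0.16 (R 4.3.3), with p adjusted by Benjamini and Hochberg over 25543 genes, threshold 0.05. The difference in rise and the contrasts within 1 age or genotype were fitted with 4 groups plus batch, leaving 3 residual degrees of freedom; effects over both ages or genotypes were fitted with genotype, age and batch, leaving 4. Relative counting error is largest for members with few counts in young mice, and its part in the spread was not tested. Replicates are mice of different batches and litters. Alternatives used RLE size factors, no filter, DESeq2 1.42.0, no batch term, a litter block, an offset for the trend with transcript length, limma 3.58.1 on log2(TPM + 1) or log2(TPM + 0.1) (mean of at least 1 TPM, or no filter), each mouse left out and litter 1 left out. Tables and figures were made in Python 3.11.15 with numpy 2.4.6, pandas 2.3.3 and, for plots, matplotlib 3.10.9. The models were also run on simulated counts, with the same spread between mice for every gene and no batch or litter effect. Since these data differ in that, nothing is read from the run.

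The labels tie a KO and a WT mouse to each litter, and littermates' deviations from their group means correlated at 0.08 in old and 0.24 in young litters across genes. Littermates also share a batch, so this value mixes litter with batch, and nothing is read from it. The fits with age treat littermates as separate mice. The members and gene lists were chosen with earlier results of these data known. Genes named besides the members are Asxl2, detected paralogs, the 5 genes most alike in profile (at least 2 TPM on average), and from each list up to 4 genes that passed in each comparison, by size of change and at a level of 2 TPM or more in the higher group. Named outside this rule, as checks or as the single gene behind a count, are Xist, Ighv7-1, the gate genes Kit, Ly6a and Cd34, Krt18, markers and relatives below 1 TPM, and Fhl1 with age.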

Additional observations from a re-analysis of the deposited data

How the results depend on the processing

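For the difference in rise, 0 of 8 members passed under all 18 alternatives, and 131 of 144 estimates kept their sign. Those that turned were Plscr2, 0.084 with the length correction and -0.51 to 0.22 with 1 mouse left out; Clca3a1, -0.31, and Zg16, 0.011, on log2(TPM + 1) with and without the filter; and, with 1 mouse left out, Muc1 (-0.10 to 1.34) and Wwtr1 (-1.34 to 0.33). For KO over WT over both ages, 1 member passed (Clca3a1), against 2 in DESeq2 (with Zg16), 0 without the batch term, 0 with litter as a replicate block, 0 with the length correction, 0 on log2(TPM + 1) with or without the filter and on log2(TPM + 0.1), 0 without litter 1 and 0 to 1 with 1 mouse left out. Among the other KO changes, Clu turned to -0.055 on log2(TPM + 1) with and without the filter and -0.091 on log2(TPM + 0.1) (-0.083 to 0.33 with 1 mouse left out), Nupr1 to 0.026 without litter 1 (-0.20 to 0.16), Muc1 ran from -0.32 to 0.33 with 1 mouse left out, and Wwtr1 turned to 0.075 with the length correction. In young mice 1 member passed in DESeq2. The counts over all genes under these settings are given below. The litter block changed no other call of a member; it could not be run for age, since a litter holds 1 age. The rise with age kept its sign in all 408 estimates (log2 1.46 to 4.11 over both genotypes, 1.20 to 4.39 in KO, 1.47 to 4.57 in WT). The members were chosen for this rise in the same mice, so nothing is read from the kept sign.

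Over all genes, 2548 passed for KO over WT over both ages (816 higher, 1732 lower), against 4238 without the filter, 5381 in DESeq2, 374 without the batch term, 1162 with the litter block, 1260 with the length correction (662 higher, 598 lower), 6 on unfiltered log2(TPM + 1), 262 without litter 1 and 83 to 4930 with 1 mouse left out. With age 3563 passed, against 6490 without the filter, 6745 in DESeq2, 168 without the batch term, 202 with the length correction, 77, 67 and 2 on log2(TPM + 1), log2(TPM + 0.1) and unfiltered log2(TPM + 1), 45 without litter 1 and 53 to 5283 with 1 mouse left out. For the difference in rise 1 passed, against 75 without the filter, 8 in DESeq2, 9 without litter 1, 0 without the batch term, with the length correction and in limma, and 0 to 27. For KO over WT 166 passed in old mice, against 2516, 3297, 0 without the batch term, 12 with the litter block, 2021, 1977 and 0 in the same 3 limma fits, 59 and 6 to 3709, and 16 in young mice, against 421, 382, 0, 3, 0, 0, 0, 38 and 0 to 1271 in that order. Calls with age split into 1109 higher and 2454 lower, against 158 and 44 with the length correction and 57 and 20 on log2(TPM + 1), where those for KO over WT split into 736 and 2757; in old mice KO over WT gave 52 and 114, against 112 and 113 and 367 and 1654. The median KO change of all genes was 0.10 on counts and -0.19 on log2(TPM + 1), so changes near that size rest on the scaling. Young Wwtr1, Muc1, Zg16 and Clca3a1 rest on few counts, and whether depth or the 2 mice a group limit these comparisons was not tested. The causes of these shifts were not tested.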
